A study of Homo sapiens with 60 samples.

Results

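The mitosis genes described here are 42 genes of the G2 phase and of mitosis, of 60675 genes in the deposited table of HT29 cells. They were chosen by name: G2 and M cyclins with their kinase, mitotic kinases, and genes of the spindle checkpoint, kinetochore, spindle, cytokinesis and anaphase ubiquitin ligase. All 42 passed the filter on low counts. HT29 is an established cell line derived from a colorectal adenocarcinoma. Cells were exposed for 24 h and profiled by sequencing of messenger RNA libraries in 20 groups of 3 libraries, 60 in all. A vehicle group received DMSO, at 0.1% by its labels, while the series description says 2%. A wortmannin group received 10 µM of this inhibitor of phosphoinositide 3-kinase, the positive control. The labels give no DMSO percentage for this group. The other 18 groups received water extracts of 6 herbal medicines at 3 doses each, and the labels do not say whether these also held DMSO. Zingiberis Rhizoma Recens (fresh ginger), Zingiberis Rhizoma (ginger), Pinelliae Tuber, Scutellariae Radix and Zizyphi Fructus were given at 500, 100 and 20 µg/mL, called high, medium and low. For Coptidis Rhizoma the doses were 290, 58 and 11.6 µg/mL, because its top dose was set at the concentration inhibiting the cells by 20%. Whether the 3 libraries per group stem from separate cultures is not said in the labels, so p-values measure only the scatter among libraries, and this may be technical. Vehicle and wortmannin each have their own first part in the sample codes, and so do the 2 gingers together, Pinelliae with Scutellariae, and Coptidis with Zizyphi. Comparisons with vehicle thus also compare code sets, and treatment and code set cannot be told apart there. The titles of all 60 libraries carry the label BatchA, and what the code sets stand for is not said. Comparisons of doses lie inside 1 extract and 1 code set.

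Cells enter mitosis when cyclin B bound to CDK1 is activated by CDC25 phosphatases, with help from the kinases PLK1 and AURKA. Spindle motors and microtubule-binding proteins then build the spindle, kinetochore proteins tie chromosomes to it, and the checkpoint proteins BUB1, BUB1B, MAD2L1 and TTK hold back anaphase until all chromosomes are attached. The anaphase-promoting complex with its activators CDC20 and FZR1 (also called CDH1) then marks cyclin B and securin (PTTG1) for destruction, and the cell divides. Most of these genes are transcribed late in the cell cycle, kept off in resting cells by the DREAM complex and turned on by MYBL2 and FOXM1, through promoter elements called the cell cycle homology region (CHR) and the CCAAT box.

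Promoter letters of a few members are shown because many, though not all, of the members hold such elements. RefSeq promoter windows (GRCh38.p14, 250 bases before to 50 after a transcript start) matched 37 of the 42 genes, in 48 windows. Both strands were searched. The CHR was taken as TTTGAA and also as TTCGAA, and the CCAAT box as its name. E2F sites were taken as TTCCCGC and also as TTGGCGC, besides the forms TTCGCGC and then TTGCCGC. The CHR and CCAAT matches can overlap, as in MKI67. A CHR match was in 29 of the 37 genes (78.4%), against 19.5% of the 27305 genes in the promoter table. CCAAT was in 30 (81.1%, against 39.7%), both motifs in 24 (64.9%, against 7.85%) and an E2F match in 12 (32.4%, against 15.3%). A CHR match that began within 100 bases before a start was in 20 (54.1%), against 6.48% of all genes. Counted by window, the CHR was in 66.7% of the member windows and 16.4% of all 35116 windows. The 8 members with no CHR match in these windows were AURKB, CCNA2, CCNB1, CENPE, KIF20A, KIF2C, PTTG1 and UBE2S. A match describes letters only and is no evidence of binding. Below, 5′ to 3′ on the strand of the gene, capitals mark CHR and CCAAT matches on either strand.
CCNB2 (chr15:59105105-59105134, plus strand): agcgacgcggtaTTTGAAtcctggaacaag
PLK1 (chr16:23678848-23678877, plus strand): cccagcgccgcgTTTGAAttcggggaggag
BUB1B (chr15:40161034-40161063, plus strand): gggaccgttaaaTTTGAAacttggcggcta
CENPA (chr2:26786026-26786055, plus strand): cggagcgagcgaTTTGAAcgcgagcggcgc
CDC20 (chr1:43358904-43358933, plus strand): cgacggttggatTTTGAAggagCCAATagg
KIF23 (chr15:69414282-69414311, plus strand): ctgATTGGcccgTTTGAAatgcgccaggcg
INCENP (chr11:62123981-62124010, plus strand): ggATTGGctgagccttcagtTTTGAAaatc
HMMR (chr5:163460598-163460627, plus strand): gggagaTTTGAATTTGAAaccggtagggag
CDC25B (chr20:3796260-3796289, plus strand): ctgctgttatttTTCGAAtatataaggagg
MKI67 (chr10:128126424-128126573, minus strand): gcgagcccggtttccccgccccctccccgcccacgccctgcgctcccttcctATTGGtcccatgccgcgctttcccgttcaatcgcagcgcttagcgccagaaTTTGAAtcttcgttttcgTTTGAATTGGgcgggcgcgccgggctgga
UBE2S (chr19:55407789-55407938, minus strand): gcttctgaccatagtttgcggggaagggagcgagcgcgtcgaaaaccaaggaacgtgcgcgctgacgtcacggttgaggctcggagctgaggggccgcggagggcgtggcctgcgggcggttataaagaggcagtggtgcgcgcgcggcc
In PLK1 and CCNB2 the CHR begins 29 bases before the start, in BUB1B 23, in CENPA 18, in CDC20 65, in KIF23 55 and in INCENP 10. HMMR holds a pair of CHR matches end to end, and MKI67 a pair beginning 47 and 29 bases before its start. CDC25B has several starts, and the letters shown belong to the start with a CHR. UBE2S is shown as a member with neither motif in the 150 bases before its start.

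Levels below are CPM, counts relative to scaled library sizes. They are not corrected for gene length, so they are compared between samples and not between genes. Libraries held 11.1 to 34.4 M counts (median 23.4 M). In bulk samples fewer cells in mitosis and less RNA per cell cannot be told apart. Summed over the 42 genes, where the most abundant transcripts weigh most, wortmannin libraries held 4104, 4189 and 4021 CPM and vehicle libraries 5834, 5848 and 5992. Coptidis Rhizoma at the high dose held 4260, 4663 and 4907 CPM. The 54 libraries of the other 18 groups lay between 5693 and 6365 CPM (median 5986). The 6 low libraries were thus all those of wortmannin and of Coptidis high, with no overlap with any other group.

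**Figure D1:**
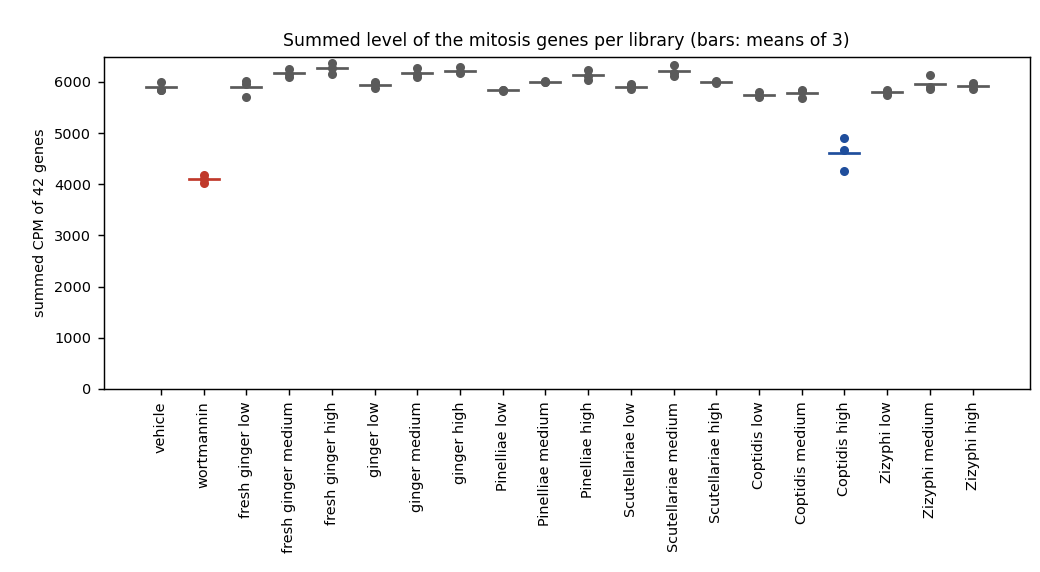
Summed level of the 42 mitosis genes in each of the 60 libraries (y axis, CPM, from 0), by group (x axis); points are libraries and bars means of 3. Wortmannin (red, 4021 to 4189) and Coptidis high (blue, 4260 to 4907) lie below the 5693 to 6365 of all other libraries.

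Gene by gene the same 2 groups stood out. Wortmannin was the group with the lowest mean for 32 members and Coptidis high for the other 10, and together they were the 2 lowest groups for 37. For 39 members all 3 wortmannin libraries lay below all 54 libraries of the other 18 groups, which holds for 3.99% of the 16608 genes tested. For 26 members this was so of the 3 Coptidis high libraries (12.3% of all genes), and for CDC25B, FZR1 and HMMR they lay above all 54 (15.4% of all genes).

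**Figure D2:**
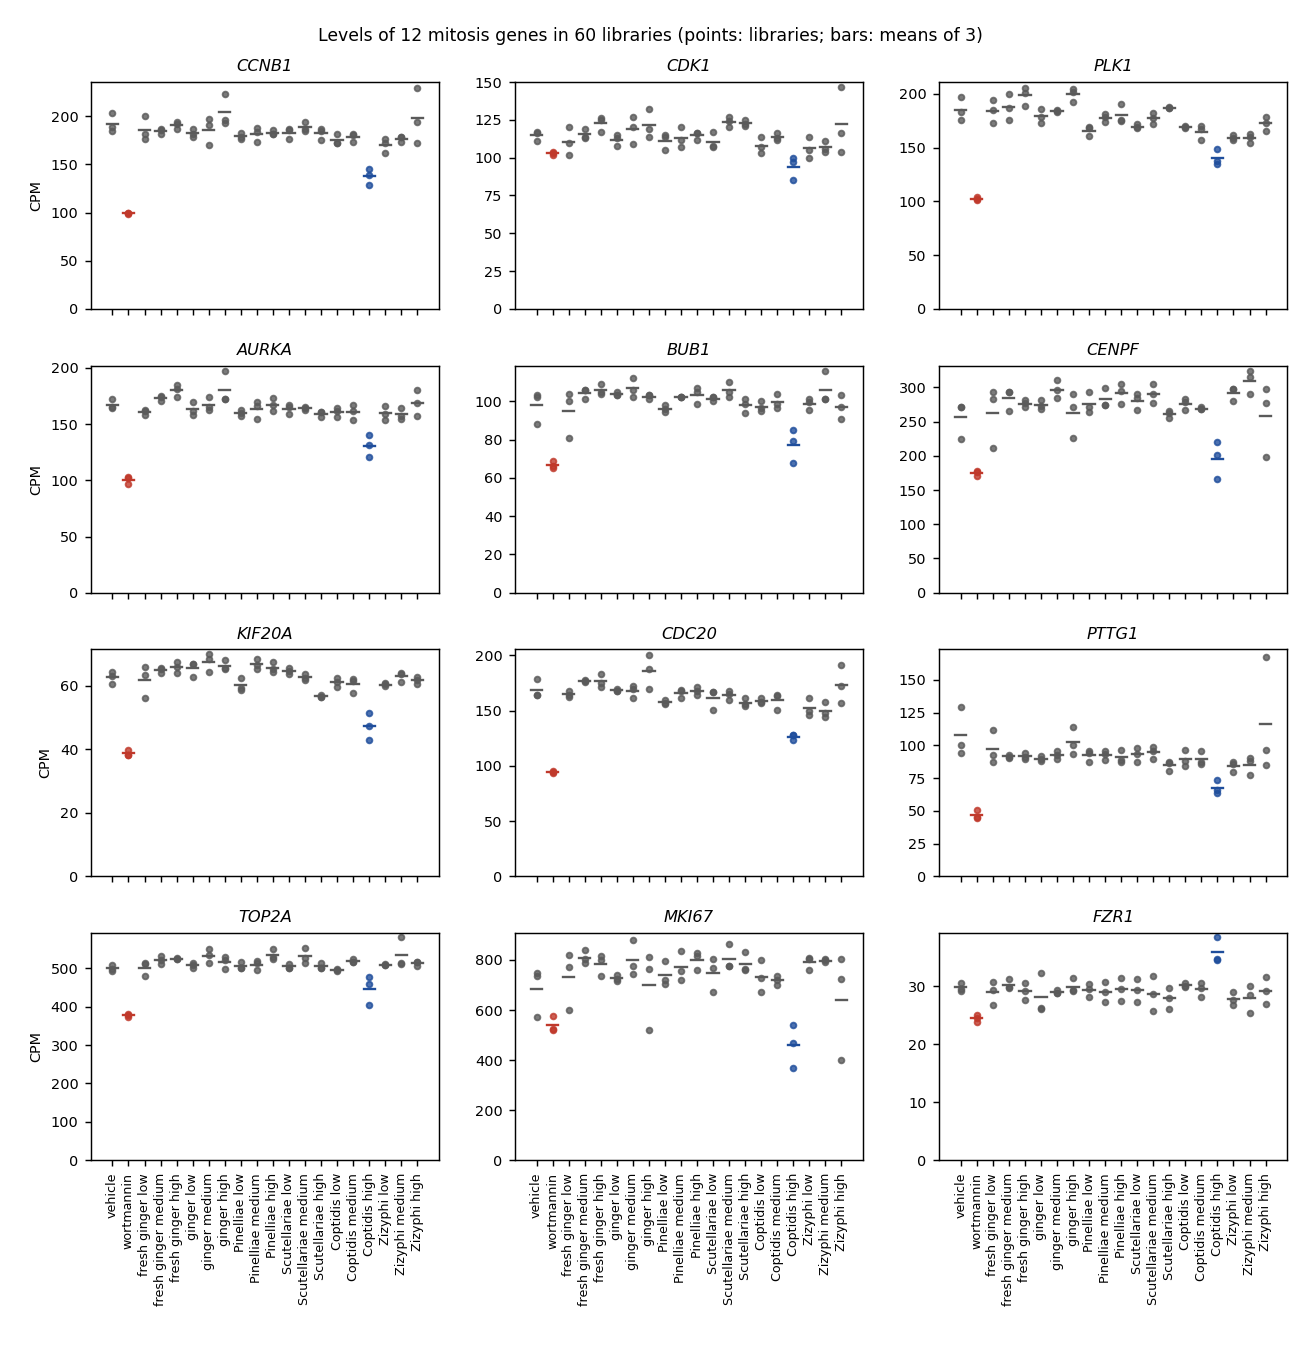
Levels of 12 members (y axes, CPM, from 0) in all 60 libraries by group (x axes); points are libraries and bars means of 3, with wortmannin in red and Coptidis high in blue. CCNB1 lay at 98.1 to 99.9 CPM with wortmannin and at 129 to 145 in Coptidis high, below the 162 to 229 of the other libraries, while FZR1 was low with wortmannin and high in Coptidis high.

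With wortmannin 40 of the 42 members fell against vehicle and none rose (edgeR quasi-likelihood test, adjusted p below 0.05). Of all genes tested 20.6% were called, 10.8% as lower and 9.72% as higher. The median log2 change of the members was -0.52, against 0.00 over all genes, and the values ran from -1.19 for PTTG1 to -0.15 for CDK1. All 42 were below 0.

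Cyclin B1 (CCNB1), which activates CDK1 at the start of mitosis, lay at 203, 185 and 189 CPM in vehicle and at 99.5, 99.9 and 98.1 with wortmannin. The groups did not overlap, and CCNB1 (ENSG00000134057, chr5:69167010-69178245) fell by 0.96 ± 0.06 (SE) on the log2 scale, adjusted p = 3.32e-17 in edgeR. CCNB2 fell by 0.83, the phosphatase gene CDC25C by 0.75, and cyclin A2 (CCNA2) and CDC25B by 0.52 each. CDK1 itself, the kinase these proteins bind or activate, lay at 116, 111 and 117 CPM in vehicle and at 104, 103 and 102 with wortmannin. Its libraries did not overlap either, yet its log2 change of -0.15 ± 0.07 did not pass (adjusted p = 0.133 in edgeR). In the fit of only the 6 libraries compared it passed, with adjusted p = 0.0445. Of the 6 genes of this group, 5 fell.

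All 7 mitotic kinases and their partners fell. PLK1, which acts from entry to cytokinesis, went from 197, 176 and 183 CPM to 102, 104 and 101, a log2 change of -0.85 ± 0.05 (adjusted p = 7.89e-20 in edgeR). AURKA, the kinase of spindle poles, went from 172, 164 and 165 CPM to 103, 102 and 96.5 (log2 change -0.73 ± 0.05, adjusted p = 1.21e-16 in edgeR). TPX2, the activator of AURKA, fell by 0.49 on the log2 scale. In the chromosomal passenger complex, which corrects wrong attachments, the 4 subunits fell by unequal amounts: survivin (BIRC5) by 0.86, AURKB by 0.55, CDCA8 by 0.48 and INCENP by 0.21.

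The 4 checkpoint genes also fell. BUB1, a checkpoint kinase at kinetochores, lay at 88.3, 102 and 103 CPM in vehicle and at 66.3, 68.7 and 64.9 with wortmannin (log2 change -0.55 ± 0.07, adjusted p = 4.16e-09 in edgeR). MAD2L1 fell by 0.39, TTK by 0.35 and BUB1B by 0.26. All 6 kinetochore genes fell. The centromeric histone gene CENPA went from 23.8, 22.4 and 23.1 CPM to 12.6, 12.7 and 11.9, a log2 change of -0.89 ± 0.08 (adjusted p = 1.21e-12 in edgeR). CENPA (chr2:26764289-26801067) overlaps SLC35F6 on the same strand, and reads could be shared between them. CENPF went from 225, 272 and 272 CPM to 171, 177 and 178 (log2 change -0.55 ± 0.10, adjusted p = 4.82e-05 in edgeR). The motor CENPE fell by 0.76, and the NDC80 complex subunits SPC25, NUF2 and NDC80 by 0.57, 0.48 and 0.25.

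All 6 spindle genes and all 5 cytokinesis genes fell. The largest spindle change was that of DLGAP5, a microtubule-binding protein, at -0.84 on the log2 scale, followed by KIF2C and HMMR at -0.58 each, KIF4A at -0.53, NUSAP1 at -0.33 and KIF11, the motor that pushes spindle poles apart, at -0.32. KIF20A, a motor of the central spindle, lay at 60.6, 63.2 and 64.3 CPM in vehicle and at 38.2, 38.4 and 39.7 with wortmannin (log2 change -0.69 ± 0.05, adjusted p = 2.24e-16 in edgeR). It overlaps CDC23 and BRD8 on the opposite strand, and the strand setting of the counting is not given in the sources used here. PRC1, which bundles the central spindle, fell by 0.48, ECT2 by 0.40, KIF23 by 0.38 and ANLN by 0.35.

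The anaphase genes held the largest changes of all, with 6 of 6 lower. PTTG1 (ENSG00000164611, chr5:160421822-160428744), securin, lay at 129, 100 and 93.8 CPM in vehicle and at 51.0, 45.3 and 44.8 with wortmannin. Its log2 change was -1.19 ± 0.13 (adjusted p = 1.72e-09 in edgeR), and without vehicle replicate 1, where it was highest, it was -1.04. PTTG1 has a near copy, PTTG2, so some reads could be shared. UBE2S (ENSG00000108106, chr19:55399745-55407777), the enzyme that extends ubiquitin chains for the anaphase complex, went from 280, 211 and 233 CPM to 122, 120 and 114 (log2 change -1.03 ± 0.14, adjusted p = 2.59e-07 in edgeR). It overlaps the ribosomal protein gene RPL28 on the opposite strand. CDC20 went from 179, 164 and 164 CPM to 94.7, 93.7 and 95.2 (log2 change -0.84 ± 0.05, adjusted p = 1.03e-17 in edgeR), and UBE2C, which starts the chains, fell by 0.59. The smallest changes were those of FZR1, at 30.6, 29.6 and 29.2 CPM in vehicle and 24.6, 23.8 and 25.0 with wortmannin (log2 change -0.28 ± 0.07, adjusted p = 0.0043 in edgeR), and of separase (ESPL1), which fell by 0.22.

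Of the chromosome genes, topoisomerase TOP2A went from 509, 492 and 499 CPM to 379, 380 and 374, a log2 change of -0.41 ± 0.04 (adjusted p = 3.05e-10 in edgeR). MKI67, which encodes the proliferation marker Ki-67, lay at 574, 734 and 747 CPM in vehicle and at 523, 578 and 519 with wortmannin. Here the groups overlapped through vehicle replicate 1, and the log2 change of -0.34 ± 0.15 did not pass (adjusted p = 0.0919 in edgeR).

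Vehicle replicate 1 is 1 of 4 libraries that stood apart from the rest of their groups. The others are replicate 1 of fresh ginger low, replicate 2 of ginger high and replicate 3 of Zizyphi high. Ribosomal protein genes took 5.86 to 7.58% of the counts in these 4, against 4.76 to 5.42% in the other libraries of the same groups. Without the 4 libraries 41 members were called with wortmannin, and the share of all genes called there is not given here. The wortmannin change of MKI67 was then -0.46 and passed (adjusted p = 0.000368 in edgeR). Leaving out vehicle replicate 1 alone gave -0.45, which did not pass (adjusted p = 0.061 in edgeR). MKI67 did pass, at -0.34 each, with no low-count filter (adjusted p = 4.94e-06 in edgeR) and in the fit of only the libraries compared (adjusted p = 0.0365 in edgeR). The part of library quality in these values was not tested.

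With wortmannin, the genes that fell reached beyond the 42. Of 40 further mitosis genes on a second list, 35 fell and none rose, with a median log2 change of -0.37. Its members with the smallest p were KPNA2, an importin (-0.51), the spindle proteins GTSE1 (-0.59) and TROAP (-0.72), and CEP55 (-0.73), which acts at the last step of abscission. Of 16 genes of the anaphase-promoting complex and its partners, by contrast, 3 fell and none rose (median -0.06). Of 20 genes of the G1/S transition and DNA replication, 5 rose and 3 fell (median 0.02): CDC6 (0.28), CCNE2 (0.60) and E2F2 (0.52) were higher and RRM1 (-0.26) was lower. Cyclin E2 (CCNE2) lay at 13.3, 10.8 and 11.8 CPM in vehicle and at 18.6, 17.8 and 17.4 with wortmannin, with no overlap. Of 13 other cohesin and condensin genes 4 fell, RAD21 (-0.31) with the smallest p. Of 14 genes that time mitotic entry 3 fell (BORA -0.42, CHEK2 -0.30, ENSA -0.26) and none rose. Of all genes tested 20.6% were called with wortmannin, 10.8% as lower and 9.72% as higher. The counts of the anaphase complex and mitotic entry genes are near that share and are not read as results about these lists. The cell cycle inhibitor CDKN1A (p21) was at 15.7 ± 1.83 CPM in vehicle and 14.7 ± 1.19 with wortmannin (SD, n = 3 each) and was not called.

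Among 15 regulators of mitosis genes 6 fell with wortmannin and none rose (20.6% of all genes called, 10.8% lower and 9.72% higher). FOXM1, a transcription factor active in G2, went from 201, 206 and 216 CPM to 145, 149 and 146, a log2 change of -0.50 with adjusted p = 1.19e-11 in edgeR. MYBL2 fell by 0.30, TFDP1 by 0.17 and NFYC, a subunit of the CCAAT-binding factor, by 0.19. Members with a CHR match in their promoter windows had a median wortmannin change of -0.48 (29 genes, 27 lower). In the 8 without a match it was -0.72 (8 lower). Between the low and high Coptidis dose the medians were -0.28 (21 lower, 3 higher) and -0.39 (6 lower). Only TTTGAA and TTCGAA were searched, so a missing match does not show that the element is absent.

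**Figure D3:**
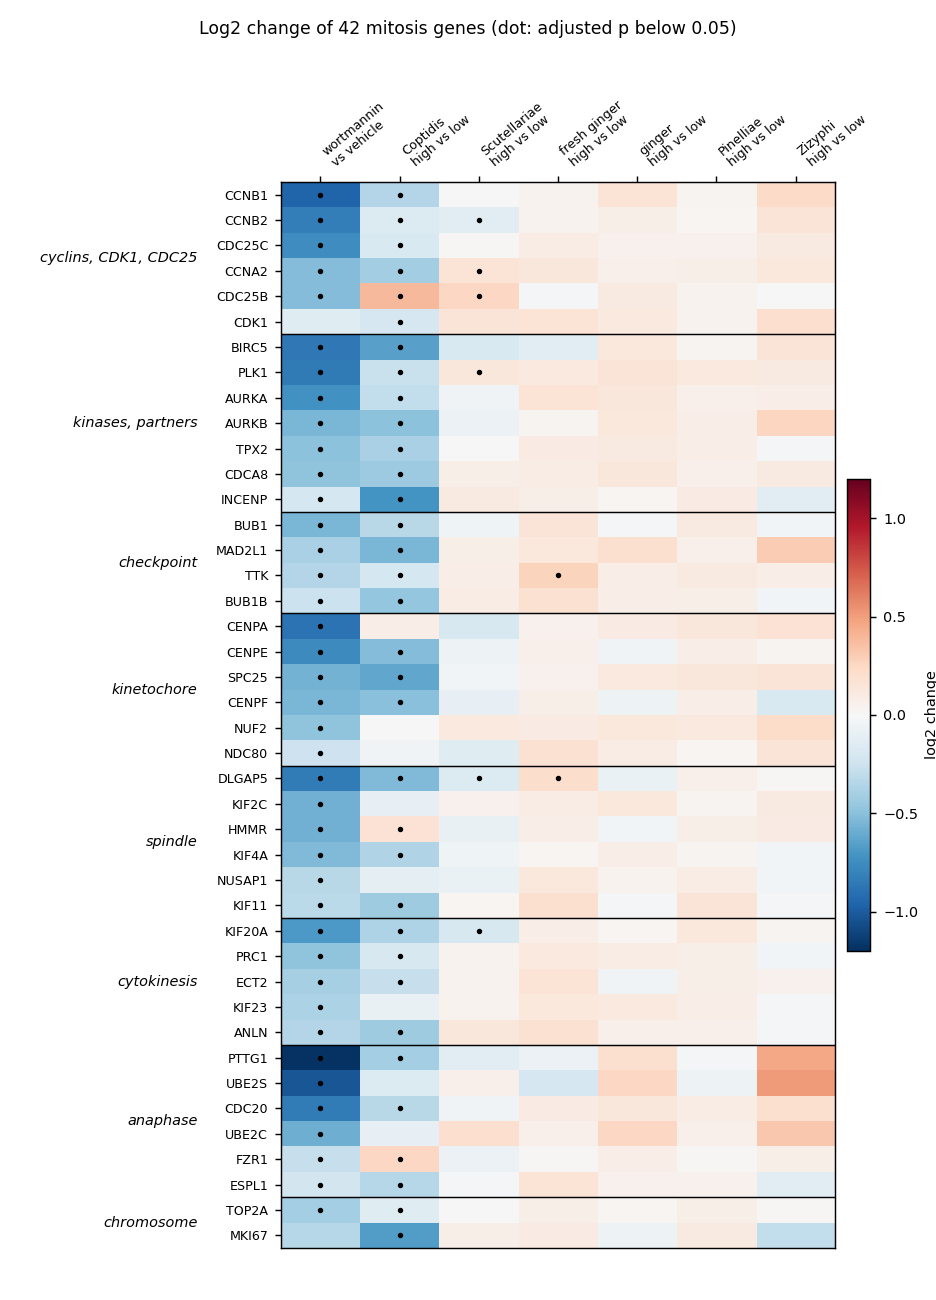
Log2 change of the 42 members (rows, by role) in wortmannin against vehicle and in the high against the low dose of each extract (columns); blue is lower, red higher, and dots mark adjusted p below 0.05 in edgeR. The wortmannin column is blue throughout with 40 dots, the Coptidis column has 31 lower and 3 higher dots, and Pinelliae, ginger and Zizyphi have none.

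Coptidis Rhizoma, rich in the alkaloid berberine, lowered most of the members at its high dose. Against the low dose 34 of 42 were called, 31 lower and 3 higher (edgeR, adjusted p below 0.05), where 52.4% of all genes tested were called, 25.3% as lower and 27.1% as higher. The median log2 change was -0.33, against 0.00 over all genes. Against vehicle 38 members were called, 35 lower and 3 higher (53.8% of all genes, 27.1% as lower and 26.6% as higher), and against the medium dose 34, 32 lower and 2 higher (46.5% of all genes, 22.2% as lower and 24.4% as higher). Between medium and low dose no member was called in edgeR (1.3% of all genes, 0.945% as higher and 0.355% as lower). At an unadjusted p under 0.05 in edgeR were 0 members, beside 8.59% of all genes, and the DESeq2 Wald test also called 0. The summed level was 5740 ± 49.3 CPM at the low, 5789 ± 83.1 at the medium and 4610 ± 327 at the high dose (SD, n = 3 each). The change thus lay between 58 and 290 µg/mL.

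All 7 kinases and partners and all 4 checkpoint genes fell between low and high dose. INCENP, the scaffold of the chromosomal passenger complex, lay at 104, 106 and 110 CPM at the low and at 58.4, 68.9 and 67.3 at the high dose, the largest fall of the 42 (log2 change -0.72 ± 0.07, adjusted p = 1.19e-11 in edgeR). BIRC5 fell from 99.8, 102 and 104 CPM to 63.2, 67.5 and 63.6 (log2 change -0.65 ± 0.09, adjusted p = 4.55e-08 in edgeR). AURKB fell by 0.49, CDCA8 by 0.44 and TPX2 by 0.39. PLK1 went from 170, 168 and 169 CPM to 135, 149 and 138 (log2 change -0.27 ± 0.05, adjusted p = 2.63e-06 in edgeR), and AURKA from 162, 156 and 164 CPM to 121, 131 and 140 (log2 change -0.30 ± 0.05, adjusted p = 9.29e-07 in edgeR). Neither gene's groups overlapped. MAD2L1 fell by 0.55, BUB1B by 0.46, BUB1 by 0.33 (95.1, 96.2 and 100 CPM against 67.6, 79.2 and 84.8) and TTK by 0.21.

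Of the cyclin group 5 fell and CDC25B rose. CCNB1 went from 172, 182 and 172 CPM to 129, 139 and 145 (log2 change -0.35 ± 0.06, adjusted p = 4.01e-06 in edgeR), CCNA2 fell by 0.42, CDC25C by 0.18 and CCNB2 by 0.16. CDK1 lay at 107, 114 and 103 CPM at the low and at 97.4, 99.9 and a lowest value of 85 at the high dose, without overlap (log2 change -0.20 ± 0.07, adjusted p = 0.0184 in edgeR). That call was lost without high replicate 1 (-0.13, adjusted p = 0.172) or low replicate 2 (-0.16, adjusted p = 0.0795), both in edgeR. CDC25B, a phosphatase that activates CDK1 early in mitotic entry, lay at 133, 133 and 141 CPM at the low, 137, 141 and 139 at the medium and 180, 179 and 174 at the high dose. All 3 high libraries were above the rest, with a log2 change of 0.39 ± 0.04 (adjusted p = 6.97e-11 in edgeR).

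The kinetochore genes divided: 3 of 6 fell and 3 were not called. SPC25 went from 17.8, 19.2 and 19.3 CPM to 12.4, 11.7 and 12.6 (log2 change -0.62 ± 0.09, adjusted p = 7.88e-08 in edgeR), CENPE fell by 0.52, and CENPF went from 283, 267 and 279 CPM to 166, 202 and 220 (log2 change -0.50 ± 0.10, adjusted p = 3.15e-05 in edgeR). NUF2 and NDC80, partners of SPC25 in 1 complex, had log2 changes of 0.00 ± 0.07 and -0.04 ± 0.06, and CENPA of 0.08 ± 0.07. Of the spindle genes DLGAP5 (-0.53), KIF11 (-0.43) and KIF4A (-0.36) fell and HMMR rose. HMMR, a microtubule-binding receptor of hyaluronan, went from 69.7, 67.3 and 69.5 CPM to 75.3, 76.6 and 81.1 (log2 change 0.17 ± 0.05, adjusted p = 0.00436 in edgeR). Of the cytokinesis genes 4 of 5 fell: ANLN by 0.43, KIF20A by 0.37 (62.6, 61.1 and 59.6 CPM against 43.1, 47.3 and 51.4), ECT2 by 0.28 and PRC1 by 0.19.

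Of the anaphase genes 3 fell and FZR1 rose. CDC20 went from 158, 161 and 157 CPM to 123, 128 and 128 (log2 change -0.33 ± 0.05, adjusted p = 3.75e-07 in edgeR), PTTG1 from 84.4, 96.2 and 87.9 CPM to 73.4, 65.6 and 63.3 (log2 change -0.41 ± 0.13, adjusted p = 0.00552 in edgeR), and ESPL1 fell by 0.34. FZR1 (ENSG00000105325, chr19:3506273-3538330), the activator that keeps the anaphase complex working after mitosis, went from 30.6, 29.8 and 30.1 CPM to 34.7, 38.4 and 34.6, above all other libraries (log2 change 0.25 ± 0.07, adjusted p = 0.0022 in edgeR). MKI67 had the largest fall of the chromosome genes, from 798, 673 and 727 CPM to 369, 467 and 542 (log2 change -0.67 ± 0.15, adjusted p = 0.000154 in edgeR). TOP2A went from 497, 493 and 495 CPM to 404, 458 and 478 (log2 change -0.15 ± 0.04, adjusted p = 0.00356 in edgeR), a call that was lost without high replicate 1 (-0.08, adjusted p = 0.131 in edgeR). High replicate 1 had the lowest summed level of the 3, and without it 30 members were called. The share of all genes called without it is not given here.

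The share of mitochondrial transcripts moved with the high dose of Coptidis: 3.99, 3.79 and 3.77% of counts, against 12.11, 12.17 and 11.78% at the low dose. Ribosomal protein genes took 6.72, 5.95 and 6.03%, against 4.92, 5.17 and 4.88%. Their part in the changes of the members was not tested. With library sizes left unscaled the mean summed level was 5606 CPM at the low and 4787 at the high dose, and 5793 in vehicle and 4188 with wortmannin.

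Outside the 42 the high dose of Coptidis lowered all 20 G1/S and replication genes (median log2 change -0.68), a list on which wortmannin had a median of 0.02. MCM4, a subunit of the replicative helicase, went from 331, 314 and 316 CPM to 152, 150 and 154 (log2 change -1.07), and stood at 334, 323 and 329 in vehicle and 329, 336 and 335 with wortmannin. MCM3 fell by 0.68, MCM5 by 0.82 and MCM2 by 0.74. Of the 40 further mitosis genes 33 fell and none rose (median -0.38). Of the 14 genes that time mitotic entry 3 rose and 6 fell, CDKN1A (1.80) with the smallest p, then CDC25A (-1.04), CHEK2 (-0.82) and SFN (-1.28). CDKN1A rose from 15.2, 14.8 and 14.7 CPM to 53.4, 52.9 and 49.9. Of the 15 regulators 3 rose and 7 fell. MYBL2 fell by 0.56 and TFDP1 by 0.39, while LIN54 (0.33), the DREAM subunit that contacts the CHR, and NFYC (0.30) were higher. FOXM1, which fell with wortmannin, lay at 200, 191 and 199 CPM at the low and at 161, 165 and 175 at the high dose, without overlap. Of the anaphase complex genes 4 rose and 3 fell, and of cohesin and condensin genes 4 rose and 6 fell. Of all genes tested 52.4% were called in this comparison, 25.3% as lower and 27.1% as higher. The count of the anaphase complex genes is near that share and is not read as a result about them. The counts of the mitotic entry genes and of the regulators are not far above it.

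**Figure D4:**
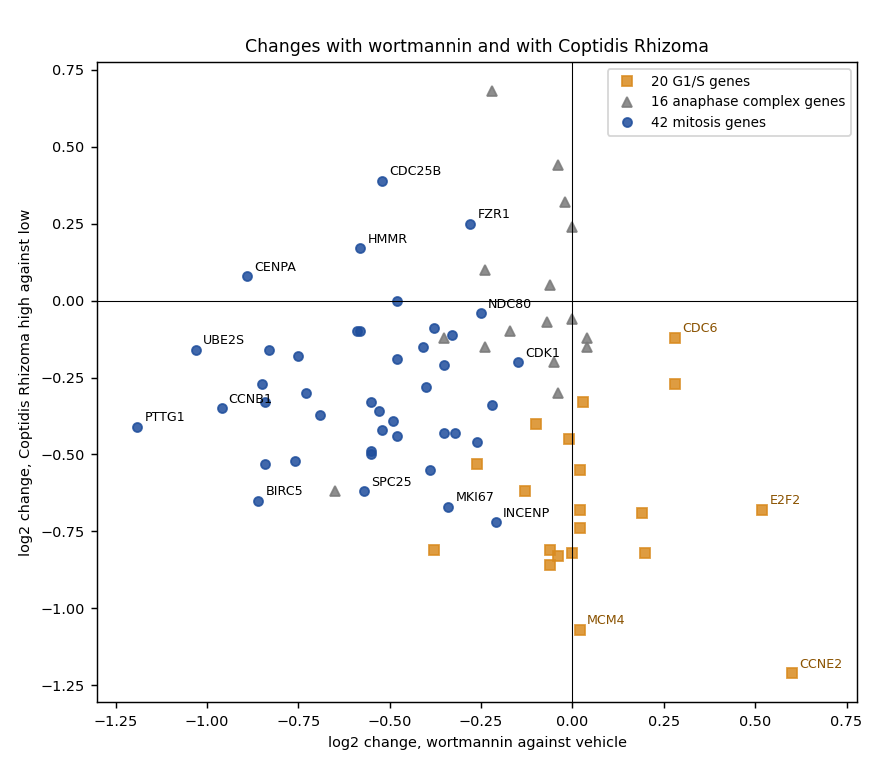
Log2 change with wortmannin against vehicle (x axis) and in Coptidis Rhizoma high against low (y axis) for the 42 mitosis genes (circles), 20 G1/S genes (squares) and 16 anaphase complex genes (triangles). The mitosis genes all lie left of 0 and mostly below 0, while the G1/S genes all lie below 0 but spread around 0 on the x axis.

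The members were ordered differently by the size of their change with wortmannin and between the Coptidis doses, although BIRC5 was among the larger falls in both. Across the 42 genes the 2 sets of log2 changes had a Pearson r of 0.03 and a Spearman rho of -0.01, as a description across genes, which are not independent replicates. Since 40 of 42 members fell with wortmannin, nearly every member that fell in Coptidis had to be among them. The change with wortmannin against vehicle was the lower of the 2 for 33 members, and that between the Coptidis doses for 9. A test of the difference itself, wortmannin against vehicle minus Coptidis high against low, called 25 members (42.6% of all genes tested, 22.3% lower and 20.3% higher), 23 with a lower value for wortmannin and 2 with a lower value for Coptidis, INCENP (0.51 ± 0.11) and BUB1B (0.20 ± 0.08). The BUB1B call was lost in 7 of 18 alternatives (adjusted p of 0.0595 to 0.153 in edgeR), among them leaving out Coptidis high replicate 1 or 2, wortmannin replicate 2 or vehicle replicate 1. This test was added after the data were seen, and the agents have no matched dose. The baselines differ too, vehicle for wortmannin and the low dose for Coptidis. Part of a difference, of its rank and of the counts above can lie in the baselines, and this part was not tested. CENPA (-0.98 ± 0.11), CDC25B (-0.90 ± 0.06), UBE2S (-0.87 ± 0.19), PTTG1 (-0.78 ± 0.18) and HMMR (-0.75 ± 0.08) differed most.

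Scutellariae Radix, rich in the flavones baicalin and wogonin, changed few members and in both directions. Between low and high dose 6 members were called in edgeR, 3 higher and 3 lower, that is 14.3% of the 42 beside 16.3% of all genes tested (7.92% higher, 8.42% lower), a share near the background. The median log2 change was 0.00. CDC25B lay at 133, 135 and 132 CPM at the low, 148, 159 and 157 at the medium and 155, 160 and 162 at the high dose, and rose by 0.25 ± 0.04 between low and high (adjusted p = 1.05e-05 in edgeR). It was also the 1 member called between low and medium dose (0.22, with 3.35% of all genes called, 1.78% higher and 1.57% lower). CCNA2 rose by 0.16 (140, 139 and 146 CPM against 158, 157 and 160), and so did PLK1, by 0.14 (172, 169 and 168 CPM against 187, 188 and 187). KIF20A fell by 0.19 (65.5, 63.8 and 64.7 CPM against 57.2, 56.6 and 56.4), DLGAP5 by 0.16, with overlapping libraries, and CCNB2 by 0.14. CCNB1 had a log2 change of -0.00 ± 0.06 and was not called. Without high replicate 3, or without low replicate 3, 3 members were called, and with no filter on low counts 2. The shares of all genes called in these settings are not given here. The CCNB2 call was lost in 6 of 12 alternatives, that of CCNA2 in 5, of PLK1 in 2 and of KIF20A in 1.

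Against vehicle 10 members were called in edgeR for Scutellariae high (20.3% of all genes, 9.72% higher and 10.6% lower). At 23.8% of the 42 this share too is near the background. CDC25B (0.23), ANLN (0.18), BUB1B (0.18) and CCNA2 (0.17) rose, and PTTG1 (-0.34), BIRC5 (-0.28), CCNB2 (-0.18), HMMR (-0.16), DLGAP5 (-0.15) and KIF20A (-0.14) fell. Without vehicle replicate 1, 4 were called, and PTTG1 was then at -0.19 and BIRC5 at -0.16. Without high replicate 1 or 2, 6 were called, and without high replicate 3, 5. The share of all genes called without each of these libraries is not given here. KIF20A and HMMR lost their calls in 7 of 12 alternatives each, PTTG1 in 5, the replicate block among them (adjusted p = 0.0521 in edgeR), and BIRC5 in 4. Against the medium dose DLGAP5 (-0.20) and HMMR (-0.18) fell (5.09% of all genes called, 2.46% higher and 2.63% lower). Of the 40 further mitosis genes 3 rose between low and high dose and none fell. Of the 20 G1/S genes 6 rose, CDC6 (0.38) with the smallest p, and 1, MCM6 (-0.19), fell. Between these doses 7.92% of all genes were called higher and 8.42% lower. CDKN1A rose here too, from 14.9 ± 1.02 CPM to 30.8 ± 0.161 (SD, n = 3 each) (log2 change 1.05).

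The Coptidis and Scutellariae changes differed for 31 members when the difference itself was tested in edgeR, 28 with a lower value for Coptidis and 3 with a higher (38.8% of all genes tested, 17.8% lower and 20.9% higher). The top doses are not the same, 290 and 500 µg/mL. INCENP (-0.83 ± 0.11), MKI67 (-0.74 ± 0.21), MAD2L1 (-0.62 ± 0.11) and SPC25 (-0.59 ± 0.13) differed most toward lower values in Coptidis, and FZR1 (0.32 ± 0.10), CENPA (0.27 ± 0.10) and HMMR (0.26 ± 0.08) toward higher. The CENPA call was lost in 7 of 18 alternatives (adjusted p of 0.0608 to 0.115 in edgeR), and CENPA was not called in either dose comparison alone. CDC25B rose in both, and its difference of 0.13 ± 0.06 did not pass (adjusted p = 0.0796 in edgeR).

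**Figure D5:**
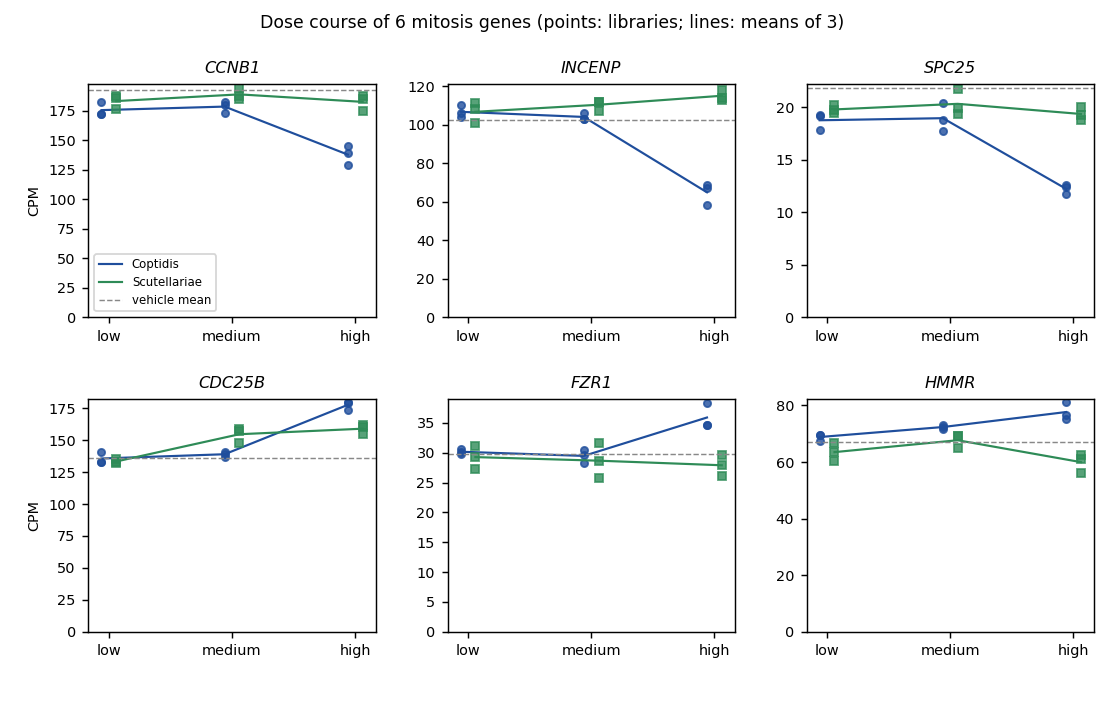
Levels of 6 members (y axes, CPM, from 0) at the low, medium and high dose (x axes) of Coptidis Rhizoma (blue circles, 11.6, 58 and 290 µg/mL) and Scutellariae Radix (green squares, 20, 100 and 500 µg/mL); points are libraries, lines join means of 3 and dashes mark the vehicle mean. In Coptidis, CCNB1, INCENP and SPC25 drop and CDC25B and FZR1 climb between medium and high, while in Scutellariae CDC25B is already at 148 to 159 CPM at the medium dose.

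In the other 4 extracts few or no members were called in edgeR. In fresh ginger, between low and high dose, TTK (0.27 ± 0.07, adjusted p = 0.0268 in edgeR; 43.8, 48.8 and 45.3 CPM against 52.5, 55.4 and 58.9) and DLGAP5 (0.21 ± 0.06, adjusted p = 0.0383 in edgeR) rose, where 1.79% of all genes were called, 1.21% higher and 0.584% lower. Against vehicle TTK (0.26), BUB1B (0.24), KIF11 (0.24) and PRC1 (0.20) rose (2.08% of all genes, 1.31% higher and 0.771% lower). Both calls of the dose comparison ended on leaving out any of low replicate 1, low replicate 3, high replicate 2 or high replicate 3, while 12 members were called without low replicate 2. The share of all genes called in that last setting is not given here. Against vehicle no call was left without vehicle replicate 1, 1 without vehicle replicate 2 or high replicate 3, and 2 without high replicate 2. The shares of all genes called in these settings are not given either. Unadjusted p-values under 0.05 in edgeR were seen for 17 of the 42 members between the fresh ginger doses (14.9% of all genes). Of the 42 changes between these doses 38 were above 0. For fresh ginger high against vehicle the count was also 17 (18.1% of all genes). In ginger no member was called between doses in edgeR (0.915% of all genes, 0.518% higher and 0.397% lower), and 0 in the DESeq2 Wald test. An unadjusted p under 0.05 in edgeR was seen for 11 of the 42 members between doses (12.4% of all genes) and for 17 against vehicle (8.6%). Against vehicle BUB1B rose by 0.21 (0.789% of all genes, 0.542% higher and 0.247% lower), a call that ended without vehicle replicate 1 (0.15, adjusted p = 0.456 in edgeR), without vehicle replicate 2 and without each of the 3 ginger libraries in turn.

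In Pinelliae Tuber no member was called between doses (0.0421% of all genes, 0.0361% higher and 0.00602% lower) or against vehicle (0.187%, of which 0.126% higher and 0.0602% lower). The DESeq2 Wald test called 0 in both. An unadjusted p under 0.05 in edgeR was seen for 3 of the 42 members between doses (3.28% of all genes) and for 7 against vehicle (11.5%). In Zizyphi Fructus no member was called by edgeR between doses (0.0482% of all genes, all of them higher), while the DESeq2 Wald test called 9. At an unadjusted p under 0.05 in edgeR were 17 of the 42 members, beside 24.4% of all genes. Without high replicate 1 edgeR called 16, and without high replicate 2, 8. The shares of all genes called in these settings and in the Wald test are not given here. These counts thus have no background beside them and are not read as a result about the members. Against vehicle none was called by either tool (0.0181% of all genes in edgeR, all higher). There 3 members had an unadjusted p under 0.05 in edgeR, beside 4.52% of all genes. UBE2S lay at 181, 202 and 347 CPM and MKI67 at 802, 722 and 399 in the 3 Zizyphi high libraries. The last value of each is that of replicate 3, which stood apart. The part of that library in the spread and in the calls was not tested. All 4 extracts had a positive median log2 change of the members between low and high dose, 0.10 in fresh ginger, 0.08 in ginger, 0.07 in Pinelliae and 0.08 in Zizyphi.

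Across the 20 group means, each member was compared with the median of the other members by Spearman's rho, as a description. The values ran from 0.05 to 0.89 with a median of 0.72. TTK (0.89), KIF23 (0.88), CCNA2 (0.88) and TPX2 (0.86) followed the rest most closely. HMMR (0.05), FZR1 (0.12), CDC25B (0.30) and CENPF (0.36) followed least. Over the 18 groups without wortmannin and Coptidis high the median was 0.61 (0.05 to 0.85). Groups share code sets and are not independent, so these values are not tests.

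The colon epithelium markers CDX1, CDX2, VIL1, EPCAM, KRT8, KRT18, KRT20, CDH1, LGALS4 and CDH17 summed to 10420 to 15347 CPM in all 60 libraries. Fibroblast markers summed to 1.40 to 3.61 CPM, with 6 of 8 under 1 CPM everywhere, and endothelial markers to 0.442 to 2.73 CPM, with 4 of 5 under 1 CPM everywhere. Of 8 immune markers 6 were under 1 CPM everywhere, and the sum of 7.90 to 16.4 CPM came from CD68 and CD14.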

How the data were processed

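HT29 cells in 20 groups of 3 libraries were analysed. Per the submitters' processing notes the tools were RSEM 1.3.3, STAR 2.7.3a, Trim Galore 0.6.5 and FastQC 0.11.9. The values the authors deposited are expected counts of genes, with no scaling between libraries. RSEM divides shared reads by estimate, which touches members that overlap other genes. Of all values 8.75% were not whole, and all were rounded. Another 210 columns, of other samples, were not used. Libraries held 11.1 to 34.4 M counts.

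The main test was the robust quasi-likelihood test of edgeR 4.0.16 (R 4.3.3), with TMM scaling, filterByExpr (16608 genes kept) and 1 coefficient per group over 60 libraries, which leaves 40 residual degrees of freedom. P-values of each of 19 comparisons were adjusted by Benjamini-Hochberg over all genes and called below 0.05. Standard errors are the absolute log2 change divided by the square root of F and are approximate. In simulated counts made for Coptidis high against low (16193 genes) 72.4% of genes changed by 0.5 and 83.5% of those changed by 1 on the log2 scale were recovered. These were 98 and 97 genes, the spread was the same for all genes, and 11 unchanged genes were called. In the data 52.4% of genes were called in that comparison, so these shares are not its recovery rates.

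Members, lists, motifs and alternatives were chosen with earlier results of these data known. All members may be named. Full statistics went to 12 role representatives and to the 4 called members with the largest changes in each direction whose libraries did not overlap. Of other lists up to 4 genes with the smallest p were named per comparison. Values of CDKN1A, CCNE2, MCM4 and FOXM1 are repeated across comparisons. Alternatives were DESeq2 1.42.0, its size factors, no filter, only the libraries compared, a replicate block and leaving out libraries. Gene positions are from GENCODE release 29 on GRCh38 and promoter letters from RefSeq on GRCh38.p14.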

Additional observations from a re-analysis of the deposited data

Results flagged for a closer look

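The high-against-low changes of Coptidis Rhizoma and Scutellariae Radix differed by the edgeR test of the difference for 31 of the 42 members. That test called 38.8% of all genes tested, 17.8% lower and 20.9% higher. Among the genes given in full the differences, Coptidis minus Scutellariae on the log2 scale, were -0.34 for CCNB1, -0.35 for CDK1, -0.41 for PLK1, -0.26 for AURKA, -0.28 for BUB1, -0.39 for CENPF, -0.18 for KIF20A and -0.29 for CDC20. They were -0.15 for TOP2A, -0.74 for MKI67, -0.83 for INCENP, -0.62 for MAD2L1 and -0.59 for SPC25, and 0.32 for FZR1, 0.27 for CENPA and 0.26 for HMMR. Of 18 alternatives, the TOP2A call was lost in 8 (adjusted p up to 0.347 in edgeR), the CENPA call in 7 (up to 0.115), those of CENPF and KIF20A in 2 each and that of BUB1 in 1. Leaving out Coptidis high replicate 1 ended the calls of BUB1 (-0.20), CENPF (-0.28), KIF20A (-0.12) and TOP2A (-0.08). Leaving out single Scutellariae libraries also ended those of CENPA (high replicate 2 or 3, low replicate 1 or 3), TOP2A (high replicate 1, low replicate 1 or 3) and CENPF (low replicate 3). Leaving out Coptidis low replicate 1 ended that of TOP2A, low replicate 3 those of TOP2A and CENPA, and high replicate 3 that of CENPA.

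Wortmannin against vehicle and Coptidis high against low differed for 25 of the 42 members by the same kind of test. Of all genes tested 42.6% were called there, 22.3% lower and 20.3% higher. The baselines are not the same, vehicle for wortmannin and the low dose for Coptidis. The differences, wortmannin minus Coptidis, were -0.61 for CCNB1, -0.59 for PLK1, -0.44 for AURKA, -0.22 for BUB1, -0.33 for KIF20A, -0.51 for CDC20 and -0.78 for PTTG1. They were -0.26 for TOP2A, -0.53 for FZR1, -0.98 for CENPA, -0.90 for CDC25B and -0.87 for UBE2S, against 0.51 for INCENP and 0.20 for BUB1B. The BUB1 call was lost in 11 of 18 alternatives (adjusted p of 0.0556 to 0.236 in edgeR), among them leaving out any of vehicle replicate 2 or 3, wortmannin replicate 1 or 3, Coptidis low replicate 1 or 2 and Coptidis high replicate 2 or 3. The BUB1B call was lost in 7 of 18.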

How the results depend on the processing

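The counts of members called stayed within 1.5 times under all alternatives for wortmannin (38 to 41, main 40) and for Coptidis high against low (30 to 37), against vehicle (33 to 39) and against medium (leave-one-out 32 to 35), and no result reversed. The smaller counts moved, and the cause was not tested. Shares of all genes called under the alternatives are not given here, so these counts have no background beside them. For fresh ginger high against low (2) no low-count filter gave 1, the replicate block 4, the DESeq2 Wald test 5, only the libraries compared 0 and leaving out the 4 libraries that stand apart 0; leaving out 1 library gave 0 to 12. Against vehicle (4) these 3 last settings gave 8, 0 and 2, and leaving out 1 library 0 to 6. For ginger high against low (0) no filter gave 2. Against vehicle (1) DESeq2 size factors, no filter, only the libraries compared and leaving out the 4 gave 0, the replicate block 2 and the Wald test 3, and leaving out 1 library 0 to 2. For Scutellariae high against low (6) no filter gave 2, leaving out the 4 libraries 10, only the libraries compared 15 and leaving out 1 library 3 to 5. Against vehicle (10) leaving out 1 library gave 4 to 9, and against medium (2) 0 to 2, with 0 under no filter. Medium against low (1) gave 2 under the replicate block, 3 without the 4 libraries and 2 in the Wald test. For Zizyphi high against low (0) no filter gave 7, the Wald test 9 and leaving out 1 library 0 to 16. For Pinelliae against vehicle (0) no filter gave 3. Same-numbered libraries were not paired by the labels, and their deviations correlated at -0.37 to 0.214; with the replicate block the wortmannin count was 40 and the Coptidis count 34. Of 116 single-gene changes called, 30 lost the call under at least 1 alternative. The set of 4 libraries was chosen after seeing the data. Libraries held 11.1 to 34.4 M counts, and what depth limits was not tested. Of genes changed by 0.5 in the simulated Coptidis comparison 72.4% were recovered, and of those changed by 1, 83.5%. Few genes were changed in that simulation and the spread was the same for all, so these shares do not carry over to the data.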
